A study of Mus musculus with 231 samples.

Results

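miR-335 is a microRNA made from 1 hairpin within the imprinted gene Mest, and its arms, miR-335-5p and miR-335-3p, were followed in blood of C57BL/6 mice, in peripheral blood mononuclear cells (PBMC), before and after a leukemia-causing fusion gene was switched on. The members are the 2 rows mmu-miR-335-5p and mmu-miR-335-3p, of 1863 mature miRNAs in the training count table, 1895 in the training table of CPM (counts per 1000000 after scaling by the authors) and 1817 in the validation table of CPM. They were chosen from these same data, because miR-335-3p was higher in the last libraries of the CM mice than before induction. That difference, and the same difference of miR-335-5p, are therefore given as a description with no test.

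CM mice carried the conditional knock-in allele of Cbfb-MYH11 and Mx1-Cre (Cbfb56M/+/Mx1-Cre; genotype label CHW), and Ctrl mice were littermates with the genotype label HW, CW or WT. The labels do not explain these codes, and it is not settled whether any littermate held the conditional allele without Mx1-Cre, since the labels speak of littermates without the transgene and the study's methods of Cbfb56M/+ littermates. CM and Ctrl mice alike received 7 doses of poly(I:C) at 14 mg/kg from an age of 6 to 8 weeks. Mx1-Cre is driven by an interferon-inducible promoter and is active in tissues besides blood, and all groups had the interferon stimulus. Training libraries came from 7 CM mice (53 libraries) and 7 Ctrl mice (76 libraries), first at month 0 before induction and then up to month 10, and validation libraries from 10 CM and 6 Ctrl mice at points labelled 1 to 7 and L. Sampling of the CM mice of the training cohort ended between month 4 and month 10, as given beside the values of each mouse, and a time labelled T6p5 was read as month 6.5.

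A microRNA hairpin is cut into a duplex of a 5p and a 3p strand, and the strand loaded into Argonaute guides it to messenger RNAs that pair with the seed, bases 2 to 8 from the 5′ end. Mest is expressed from the paternal chromosome in many embryonic tissues, and an intronic microRNA can be released from the transcript of its host gene. In blood, PBMC hold lymphocytes and monocytes, to which circulating blasts are added in leukemia.

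The sequences below are shown because both arms were counted, and because the seeds decide which other miRNAs could act on the same sites. They are taken from RefSeq (GRCm38.p6, plus strand), where both members matched by name, with the seed in capitals for each mature arm and both mature arms in capitals in the hairpin.
miR-335-5p: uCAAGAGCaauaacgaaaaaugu
miR-335-3p: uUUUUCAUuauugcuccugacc
Mir335 hairpin: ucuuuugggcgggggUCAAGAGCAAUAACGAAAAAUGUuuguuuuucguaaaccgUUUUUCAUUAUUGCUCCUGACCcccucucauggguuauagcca
The 98-base hairpin lies at chr6:30741299-30741396 of GRCm38.p6, with miR-335-5p (23 bases) at chr6:30741314-30741336 and miR-335-3p (22 bases) at chr6:30741354-30741375. Among 1738 mature sequences in the RefSeq table, 0 others had the seed CAAGAGC and 0 others had UUUUCAU, so no family member with the same seed could be compared. In the mm9 genome with GENCODE M1 annotation, the same 98 bases lie at chr6:30691299-30691396, inside Mest (chr6:30673547-30698457, plus strand). Of 13 annotated Mest transcripts, 9 held the hairpin in a single intron of 1316 bases (chr6:30690825-30692140), 0 held it in an exon and 4 did not span it.

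Both arms were low miRNAs of PBMC in most libraries. Over all training libraries the median deposited CPM was 30.4 for miR-335-5p and 23.7 for miR-335-3p, and the medians of CM (30.0 and 21.7) and Ctrl libraries (30.7 and 25.01) were close. Total counts were 1792809 to 7958411 per training library, and the fewest counts were 10 for miR-335-5p and 8 for miR-335-3p, both in the shallowest library, of Ctrl mouse 3349 at month 2. At month 0 the CM mice (17.97 to 42.2 CPM of miR-335-5p, median 23.5, n = 7) overlapped the Ctrl mice (21.4 to 31.3, median 28.6, n = 7). For miR-335-3p the month 0 levels were 10.4 to 24.9 CPM (median 16.5) in CM mice and 14.8 to 22.9 CPM (median 18.96) in Ctrl mice, again with overlap.

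In the plot of CPM by month, 3 libraries stood far above these usual levels, and that of Ctrl mouse 3349 at month 2 stood below them (3.67 and 2.94 CPM). The library of CM mouse 3334 at month 6.5 held 4002 CPM of miR-335-5p and 2773 CPM of miR-335-3p, that of CM mouse 3341 at month 6 held 313 and 237 CPM, and that of Ctrl mouse 3335 at month 6 held 161 and 95.4 CPM. The month 6 edgeR tests of miR-335, the mean log2 differences of the last CM libraries and the correlations of the arms are also given without these high libraries. Other values, such as overall medians, medians by month and counts of the arms, are given only with them.

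The titles of mice 3334 and 3335 go against the rest. A running number in the title was 9 to 63 in the other 6 CM mice and 64 or higher in the other 6 Ctrl mice. CM mouse 3334 had numbers above 64 over months 0 to 5 and then 7 and 8 at months 6 and 6.5, whereas Ctrl mouse 3335 had 1 to 6 over months 0 to 5 and numbers above 64 from month 6, so that 11 libraries carry a number of the other group's range. The month 6 libraries of both mice also carry a last title number from the run of the other's G number, a further number in the titles. Which of these libraries came from which mouse cannot be told apart from the labels. They were kept as labelled, a library named for mouse 3334 or 3335 means the library so labelled, and tests are also given without both mice.

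**Figure D1:**
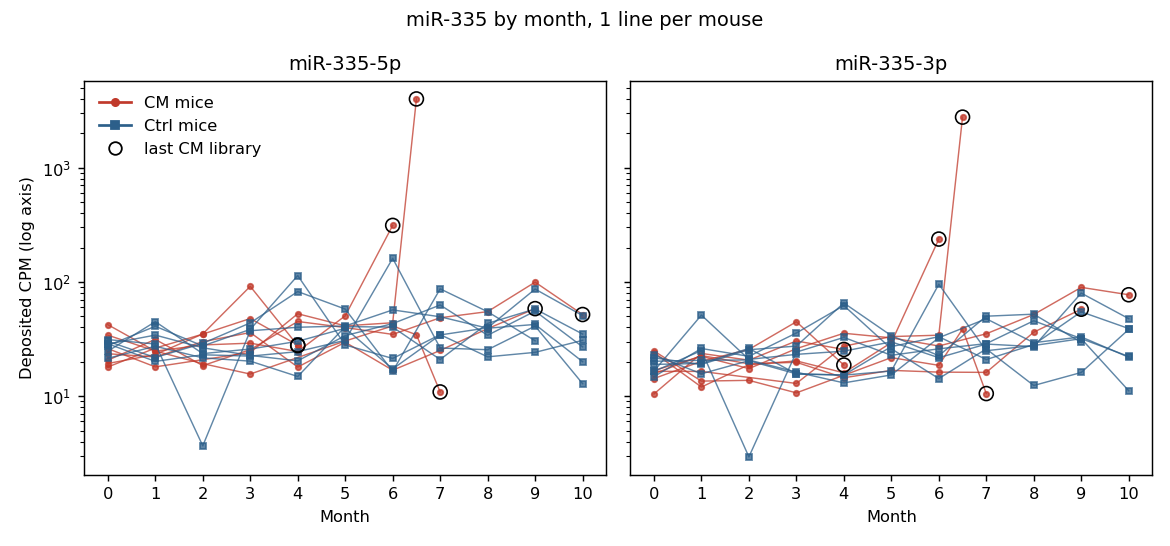
Deposited CPM (vertical, log axis) of miR-335-5p and miR-335-3p by month (horizontal) in 7 CM mice (red circles) and 7 Ctrl mice (blue squares), 1 line per mouse, with the last library of each CM mouse ringed. The ringed points of mouse 3334 (4002 and 2773 CPM) and mouse 3341 (313 and 237 CPM) lie above all 76 Ctrl libraries, and the last libraries of the other 5 CM mice lie at 10.9 to 58.4 and 10.5 to 77.2 CPM.

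The month medians spanned a narrow range. Over the 18 groups of an arm and a month with at least 5 libraries, the median of miR-335-5p ran from 23.5 CPM in CM mice at month 0 to 42.4 CPM in Ctrl mice at month 9, and that of miR-335-3p from 16.5 CPM in CM mice at month 0 to 31.9 CPM in Ctrl mice at month 9. In all 17 pairs of neighbours in this order the ranges overlapped, which says little, since sorting puts close medians side by side. For miR-335-3p, ranks 1 to 7 were CM and Ctrl groups of months 0 to 3, and ranks 11 to 18 were groups of months 5 to 10. For miR-335-5p, ranks 12 to 18 were groups of months 5 to 9, but Ctrl mice at month 10 were at rank 8. A trend over months was not tested on these medians.

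The last CM libraries, whose rise led to the choice of these miRNAs, differed widely from mouse to mouse. In mouse 3334, miR-335-5p was at 26.1, 18.04, 24.1, 52.6, 41.3 and 43.9 CPM at months 0, 1, 3, 4, 5 and 6 and at 4002 CPM at month 6.5, which was 153.6-fold above month 0. miR-335-3p in the same libraries was at 16.5, 16.5, 12.9, 27.4, 33.2 and 34.2 CPM and then at 2773 CPM, 168-fold above month 0. Against the library labelled month 6 of this mouse, month 6.5 was 91.2-fold (miR-335-5p) and 81.2-fold (miR-335-3p) higher. Both the month 0 and the month 6 comparison rest on labels that the title numbers put in doubt, and the library labelled Ctrl mouse 3335 at month 6 was at 161 and 95.4 CPM. The month 6.5 values were above every month 0 library of both groups, of which the highest were 42.2 and 24.9 CPM.

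Raw counts show the same difference without the authors' scaling. The month 6.5 library of mouse 3334 held 9871 counts of miR-335-5p and 7758 of miR-335-3p among 3808407, or 2592 and 2037 per 1000000 counts, against 26.4 and 16.5 at month 0. The folds on this scale were 98.1 and 123.6, lower than in CPM.

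Mouse 3341 rose less and also at its last library. miR-335-5p was at 42.2, 24.7, 28.1, 29.1, 24.6 and 50.5 CPM at months 0 to 5 and at 313 CPM at month 6, and miR-335-3p was at 24.1, 12.01, 18.8, 20.3, 16.0 and 29.4 CPM and then at 237 CPM. These were 7.40-fold and 9.86-fold above month 0, from 736 and 638 counts. Both values were above all 7 Ctrl mice of month 6, which ranged from 16.5 to 161 CPM for miR-335-5p and from 14.2 to 95.4 CPM for miR-335-3p.

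The other 5 CM mice had last values below those of mice 3334 and 3341. Mouse 3368 ended at 51.8 and 77.2 CPM (miR-335-5p and miR-335-3p, month 10), from 20.6 and 16.8 CPM at month 0 and above the highest Ctrl mice of month 10 (50.7 and 47.7 CPM), and mouse 3370 at 58.4 and 57.7 CPM (month 9), from 23.5 and 15.7 CPM. Mouse 3338 ended at 27.7 and 18.7 CPM and mouse 3357 at 27.98 and 25.6 CPM, both at month 4 and both below their own month 3. Mouse 3336 ended at 10.9 and 10.5 CPM, below its month 0 (34.2 and 24.9 CPM) and below all Ctrl mice of month 7. Thus 6 of 7 CM mice were higher at the last library than at month 0 for each arm, and 2 of 7 were above every Ctrl library for both arms. A rise from month 0 was not particular to CM mice. By month 10 miR-335-3p went from 18.96 to 39.1 CPM in Ctrl mouse 3339, 20.2 to 21.9 in 3340 and 16.6 to 47.7 in 3342. It went from 14.8 to 38.4 CPM in mouse 3346, 16.5 to 22.2 in 3349 and, by month 9, 21.6 to 29.5 in 3350. Mouse 3335 fell from 22.9 to 11.1 CPM. For miR-335-5p, Ctrl mice 3335, 3340 and 3349 ended lower and the others higher.

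The group values of the last CM libraries rest on mouse 3334. Mean CPM was 642 ± 1485 (SD, n = 7) for miR-335-5p and 457 ± 1024 for miR-335-3p, against 26.3 ± 8.89 and 17.5 ± 5.20 at month 0, and the library of mouse 3334 held 89.1% and 86.7% of the sums. The mean difference in log2(CPM + 1) from month 0 was 1.74 ± 2.75 (SD, n = 7) for miR-335-5p and 2.13 ± 2.68 for miR-335-3p. Without mouse 3334 it was 0.83 ± 1.44 and 1.27 ± 1.53 (n = 6), and without mice 3334 and 3341 it was 0.42 ± 1.17 and 0.88 ± 1.32 (n = 5).

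**Figure D2:**
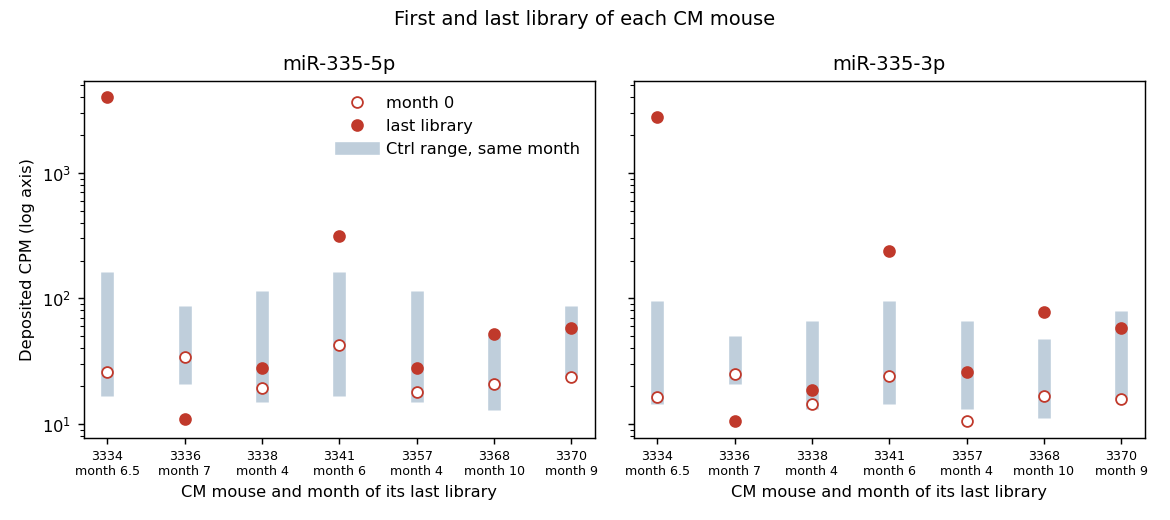
Deposited CPM (log axis) at month 0 (open circles) and in the last library (filled circles) of each CM mouse, with the range of the Ctrl mice in the same month as a bar (month 6 for mouse 3334). Mice 3334 and 3341 end above the bar for both arms, mouse 3368 ends above it at 51.8 CPM for miR-335-5p and 77.2 CPM for miR-335-3p, and mouse 3336 ends below it at 10.9 and 10.5 CPM.

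Other miRNAs moved in the same libraries. In the library of mouse 3334 at month 6.5, miR-335-5p and miR-335-3p ranked 2 and 3 of 414 miRNAs by log2 difference from the Ctrl median (6.98 and 6.74), followed by miR-182-5p (6.38, 17689 CPM) and miR-183-5p (5.95, 3945 CPM). miR-182, miR-183 and miR-96 form a cluster known for its part in sensory organs and lymphocyte activation, which lies 572 to 575 kb from Mir335 on the same chromosome. In mouse 3341 at month 6, miR-182-5p and miR-183-5p were 3.35 and 3.27 above the Ctrl median. The miR-335 arms there were 3.31 and 3.19 above it, at ranks 21 and 23 of 414. In the same library miR-182-5p (2170 CPM) was above the highest Ctrl library (1742 CPM) and miR-183-5p (616 CPM) was not (1046 CPM). In the library labelled Ctrl mouse 3335 at month 6, set against the other 75 Ctrl libraries, the miR-335 arms ranked 6 and 9 of 414. Mouse 3338 at month 4 had 2433 CPM of miR-182-5p and 653.9 CPM of miR-183-5p with only 27.7 CPM of miR-335-5p, so a high level of the cluster also occurred with a usual level of miR-335.

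miR-126a-3p, a miRNA of stem and progenitor cells and of endothelium, was at 3209 CPM in the library of mouse 3334 and 5388 CPM in that of mouse 3341. It was also at 2392 CPM in the last library of mouse 3338 and 1624 CPM in that of mouse 3336, where miR-335-5p was at 27.7 and 10.9 CPM. Of the nearer neighbours, miR-29a and miR-29b-1, 321 to 322 kb away, miR-29a-3p was at 20547 CPM in mouse 3334 at month 6.5 against a Ctrl median of 24712 CPM. miR-29b-1-5p was at 3.70 CPM there and at 0.478 CPM at month 0, both from few reads. Its Ctrl median was 1.32 CPM and its highest Ctrl library 4.43 CPM.

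Of the 12 arms listed for chromosome 6 neighbours, all of them in the CPM table, 6 were above every Ctrl library in the last library of mouse 3334, 4 in that of mouse 3338, 3 in that of mouse 3341 and 0 in those of the other 4 CM mice. All of these were arms of the miR-182, miR-183 and miR-96 cluster. Among them miR-182-3p was at only 0.693 CPM in mouse 3338 and 0.856 CPM in mouse 3341, against a highest Ctrl library of 0.605 CPM. The share of all miRNAs above every Ctrl library was not counted, so these numbers have no background beside them. The median difference from month 0 over these 12 was 2.53 (log2) in mouse 3334, beside -0.00335 over 414 miRNAs with a mean of at least 5 CPM. Only 6 of the 12 reached that mean, so the 2 medians are not under the same filter. Over these 6 the median difference from the Ctrl median was 2.55 in mouse 3334, beside -0.23 over the 414. The list of 12 also holds arms of Mir129-1, 1719 kb from Mir335. Its rows miR-29b-3p and miR-129-5p carry no gene number, unlike miR-29b-1-5p and miR-129-1-3p, so they may hold reads of other loci. The lists were chosen with results of these data known, so they describe these libraries and give no independent evidence.

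Markers of other cell types were checked in these libraries, and their part in the result was not tested. The 6 progenitor miRNAs summed to 6417 CPM in the last library of mouse 3334 and 11308 CPM in that of mouse 3341, within 2432 to 22940 CPM in Ctrl libraries. These sums include miR-126a-3p, at 3209 and 5388 CPM against at most 561 CPM in Ctrl libraries. They therefore do not show that each of the 6 lay within its own Ctrl range. The 8 stromal and vessel wall miRNAs summed to 351 and 42.8 CPM (Ctrl 187 to 1531), with 1 and 4 of the 8 at 0. The 2 lymphocyte miRNAs summed to 8577 and 16042 CPM, near or within the lower Ctrl range (8569 to 78172), and the 2 myeloid miRNAs to 1765 and 2361 CPM (Ctrl 944 to 19564). Erythroid (67610 and 26792 CPM; Ctrl 9093 to 308307), muscle (1058 and 34.3 CPM; Ctrl 27.9 to 8033) and liver sums (4.11 and 1.28 CPM; Ctrl 0.217 to 15.8) lay within the Ctrl range, and the epithelial sum was 594 CPM in mouse 3334, below the Ctrl range of 744 to 4134 CPM, and 1062 CPM in mouse 3341. In bulk PBMC, fewer cells of a type and less RNA per cell cannot be told apart.

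To see whether CM and Ctrl mice differed before the last libraries, the arms were compared month by month with edgeR's quasi-likelihood test on raw counts, and a miRNA was called at a Benjamini-Hochberg adjusted p under 0.05. Neither arm of miR-335 was called at any of 6 months. At month 1 miR-335-5p was lower in CM mice by a log2 fold change of -0.37 ± 0.20 (SE, adjusted p = 0.196) and miR-335-3p by -0.40 ± 0.28 (adjusted p = 0.305), where 27.5% of 472 miRNAs tested were called. The ranges overlapped, with 18.04 to 31.4 CPM of miR-335-5p in CM mice and 20.1 to 44.9 CPM in Ctrl mice.

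At month 2 the log2 fold change was 0.30 ± 0.33 for miR-335-5p (adjusted p = 0.543) and -0.07 ± 0.33 for miR-335-3p (adjusted p = 0.907), with 13.5% of 481 miRNAs called. Without Ctrl mouse 3349, whose library of this month had the fewest counts, it was 0.13 for miR-335-5p and -0.25 for miR-335-3p. At month 3 it was 0.41 ± 0.33 (adjusted p = 0.391) and 0.11 ± 0.30 (adjusted p = 0.843), with 22% of 455 called. At both months the difference was about as large as its standard error or smaller, except for a somewhat larger value of miR-335-5p at month 3, where mouse 3338 was at 91.5 CPM and the other 6 CM mice lay at 15.6 to 47.8 CPM. Without mouse 3338 the month 3 value fell to 0.10 for miR-335-5p and to -0.10 for miR-335-3p.

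Months 4 and 6 were tested without the last CM libraries, and month 5 with all libraries. At month 4 the log2 fold change was -0.47 ± 0.54 for miR-335-5p (adjusted p = 0.773) and -0.52 ± 0.50 for miR-335-3p (adjusted p = 0.727). At month 5 it was 0.01 ± 0.19 (adjusted p = 0.965) and 0.21 ± 0.24 (adjusted p = 0.633). At month 6 it was -0.66 ± 0.60 and -0.67 ± 0.49 (adjusted p = 0.908 for both), and without Ctrl mouse 3335 it was 0.02 for miR-335-5p and -0.13 for miR-335-3p.

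Leaving out 1 mouse moved several of these values by over 1.5 times without a call. At month 1 miR-335-3p was -0.10 without Ctrl mouse 3342, and at month 4 miR-335-5p was -0.08 without Ctrl mouse 3346 and miR-335-3p was -0.21 without Ctrl mouse 3350. Without both mice 3334 and 3335, the 6 monthly values ran from -0.83 to 0.42 for miR-335-5p and from -0.74 to 0.13 for miR-335-3p, with 0 called.

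At months 4, 5 and 6 edgeR called 0% of 510, 505 and 460 miRNAs, so the lack of a call is shared with every other miRNA. The unadjusted p was under 0.05 for 8.43% of them at month 4, 21.6% at month 5 and 2.61% at month 6. DESeq2 called 11, 21 and 0 miRNAs, and limma-trend on the deposited CPM called 9, 0 and 0. Neither arm of miR-335 was among the calls of any tool.

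The change from month 1 to month 3 was compared between the arms of the study in 1 model. It was larger in CM mice by a log2 value of 0.77 ± 0.39 for miR-335-5p (adjusted p = 0.316) and 0.50 ± 0.42 for miR-335-3p (adjusted p = 0.579). edgeR called 0% of 514 miRNAs here, with 84 at an unadjusted p under 0.05, while DESeq2 called 7 and limma-trend 0. Without mice 3334 and 3335 it was 0.76 and 0.52, and without CM mouse 3338 it was 0.42 for miR-335-5p. Within CM mice alone, month 3 against month 1 gave 0.65 ± 0.32 (adjusted p = 0.641) and 0.31 ± 0.31 (adjusted p = 0.770), where 1.1% of 453 miRNAs were called, and without mouse 3338 it was 0.29 and 0.09. This fit did not pair the months by mouse. With each mouse as a block the values were 0.46 and 0.22 (edgeR, adjusted p = 0.926 for both), with 0% of 453 called.

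Ctrl mice give the course without the fusion gene. From month 0 to month 1 the log2 fold change was 0.20 ± 0.18 for miR-335-5p (adjusted p = 0.592) and 0.44 ± 0.25 for miR-335-3p (adjusted p = 0.439), with 0.63% of 476 miRNAs called, so neither arm passed the test after the poly(I:C) injections. Without mouse 3335 these values were 0.32 and 0.58 (adjusted p = 0.454 and 0.314). With each mouse as a block, which pairs the months, they were 0.16 and 0.34 (edgeR, adjusted p = 0.778 and 0.627). From month 0 to month 6 miR-335-3p rose by 1.07 ± 0.36 (edgeR, adjusted p = 0.0495), the 1 call of a miR-335 arm over all comparisons, in a comparison where 20.5% of 474 miRNAs were called. miR-335-5p had a value of 0.96 ± 0.44 (adjusted p = 0.135). For miR-335-5p the value was 0.34 without mouse 3335 (adjusted p = 0.451) and 0.51 with each mouse as a block (adjusted p = 0.406).

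At month 6 miR-335-3p was at 95.4, 33.1, 32.5, 21.7, 14.2, 25.95 and 22.6 CPM in Ctrl mice 3335, 3339, 3340, 3342, 3346, 3349 and 3350. At month 0 the same mice were at 22.9, 18.96, 20.2, 16.6, 14.8, 16.5 and 21.6 CPM. Of these 7 mice, 6 were higher at month 6, mouse 3346 was not, and mouse 3335 stood far above the rest. Without mouse 3335 the log2 fold change was 0.60 (adjusted p = 0.0773), and with each mouse as a block it was 0.79 ± 0.27 (adjusted p = 0.0771), so the call was lost in both. The month 6 library labelled mouse 3335 is one of those whose title numbers conflict, and with it left out the rise was not called. The library of mouse 3335 at month 6 also held the highest miR-126a-3p of all Ctrl libraries (561 CPM), and the level of its miR-335-5p returned to 26.4 CPM at month 7.

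**Figure D3:**
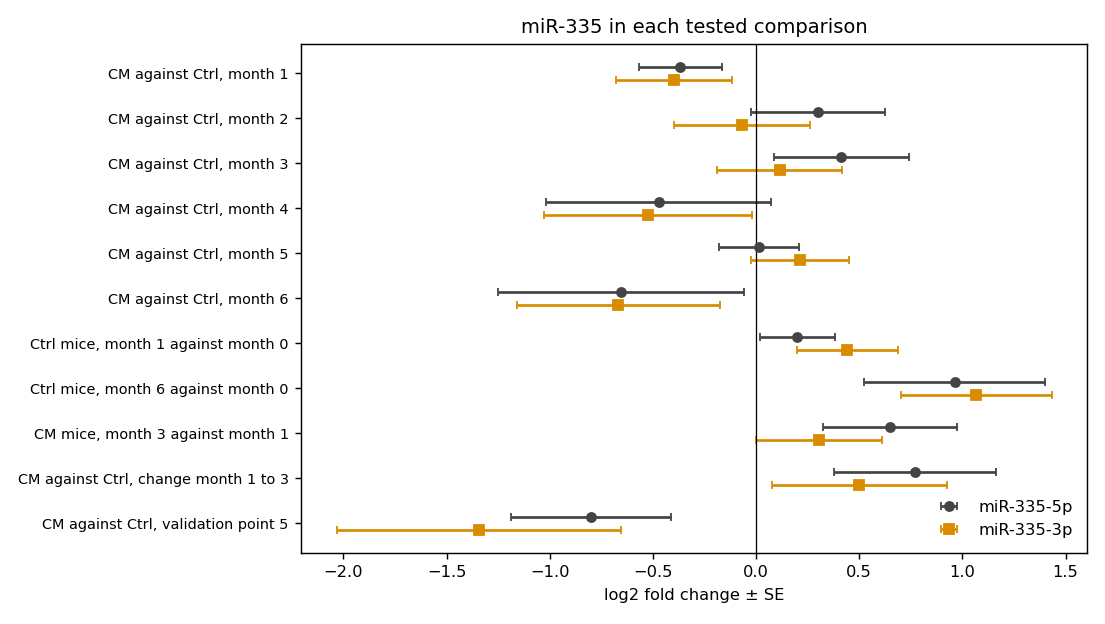
Log2 fold change with its standard error (horizontal) of miR-335-5p (grey circles) and miR-335-3p (orange squares) in each tested comparison (vertical), from edgeR for the training cohort and limma-trend for validation point 5. The month by month values of CM against Ctrl in the training cohort lie between -0.67 and 0.41, those of the change from month 1 to month 3 are 0.77 and 0.50, and the largest positive values are those of Ctrl mice at month 6 (0.96 and 1.07). Without mouse 3335 the values of Ctrl mice at month 6, not plotted, were 0.34 and 0.60.

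A mean over months 1 to 3 gave 1 value per mouse, compared with an exact two-sided permutation test over 7 CM and 7 Ctrl mice, with p-values adjusted over 3 tests. Mean log2(CPM + 1) of miR-335-5p was 4.83 ± 0.38 (SD) in CM and 4.74 ± 0.35 in Ctrl mice, a difference of 0.10 (exact permutation p = 0.629, adjusted p = 0.640). For miR-335-3p it was 4.34 ± 0.40 and 4.44 ± 0.40, a difference of -0.10 (exact permutation p = 0.640, adjusted p = 0.640). Both differences were smaller than the spread between mice of 1 group, and without mice 3334 and 3335 they were 0.12 and -0.08 (n = 6 and 6, exact permutation, adjusted p = 0.738 for both).

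The titles of training libraries carry a G number from 1 to 7, whose meaning the labels do not give, and each G number held CM and Ctrl libraries of months 1 to 3. The difference in mean log2(CPM + 1) within a G number, CM minus Ctrl, was positive in 4 and negative in 3 of 7 for miR-335-5p and positive in 1 and negative in 6 of 7 for miR-335-3p. The highest values, 3.00 and 2.58, came from G number 4, whose single Ctrl library was that of mouse 3349 at month 2.

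The arms of the hairpin rose and fell together. Over all training libraries (53 CM and 76 Ctrl), Pearson's r of log2(CPM + 1) between miR-335-5p and miR-335-3p was 0.937 and Spearman's rho 0.841, and without the last libraries of mice 3334 and 3341 they were 0.875 and 0.833, and 0.866 and 0.829 with Ctrl mouse 3335 at month 6 left out as well. These points share mice and libraries, and both arms share each library's depth and scaling, so the values are a description. miR-335-5p had more counts than miR-335-3p in 43 of 53 CM and 59 of 76 Ctrl libraries, with a median ratio of 1.19 and a range of 0.635 to 2.12.

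In the library of mouse 3334 at month 6.5 the ratio of counts was 1.27, and in that of mouse 3341 at month 6 it was 1.15, so both arms were raised in nearly the usual proportion. The median ratio was 1.25 over months 0 to 6 and 1.11 over months 7 to 10 in Ctrl mice. Over months 1 to 3 the log2 ratio of CPM was 0.49 ± 0.16 (SD, n = 7) in CM and 0.30 ± 0.15 in Ctrl mice, a difference of 0.20 (exact permutation p = 0.0379, adjusted p = 0.114), and 4 of 7 CM mice lay above all Ctrl mice. Without CM mouse 3368 the difference was 0.25 (exact permutation, adjusted p = 0.00699), so this 1 mouse decided on which side of the threshold the ratio fell. Over months 1 to 6 without the last CM libraries it was 0.13 (exact permutation p = 0.189, adjusted p = 0.566), with 2 of 7 CM mice above all Ctrl mice, and without mice 3334 and 3335 it was 0.20 over months 1 to 3 (exact permutation, adjusted p = 0.195).

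**Figure D4:**
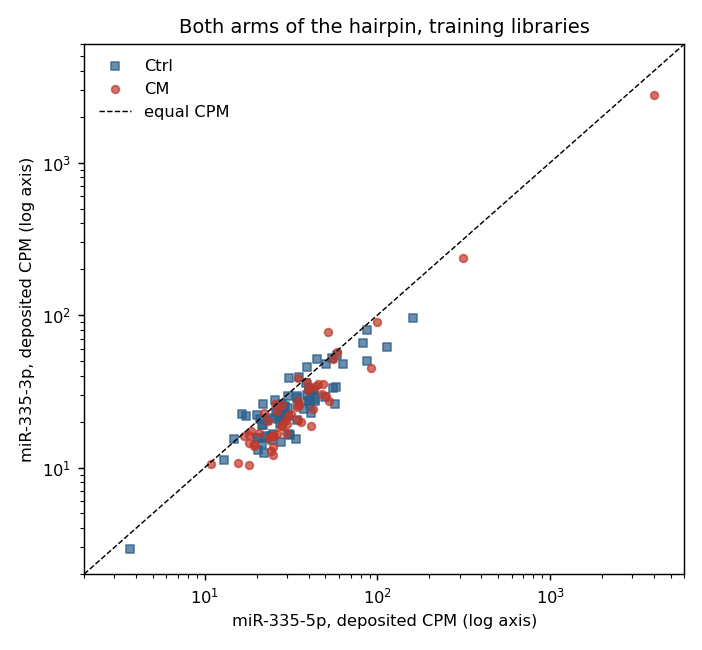
Deposited CPM of miR-335-3p (vertical, log axis) against miR-335-5p (horizontal, log axis) in all training libraries, CM as red circles and Ctrl as blue squares, with a dashed line of equal CPM. Most points lie just below the line, and the library of mouse 3334 at month 6.5 (4002 and 2773 CPM) lies along the same trend.

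The miRNAs whose pattern was most like that of miR-335 were found by Spearman's rho of log2(CPM + 1) from TMM-scaled raw counts over all training libraries, among 397 miRNAs with a mean of at least 5 CPM. For miR-335-5p they were miR-335-3p (0.843), miR-99b-5p (0.616), miR-330-3p (0.612), miR-221-5p (0.604) and miR-221-3p (0.572). For miR-335-3p they were miR-335-5p (0.843), miR-99b-5p (0.598), miR-1983 (0.581), miR-221-5p (0.571) and miR-222-3p (0.526). In the 76 Ctrl libraries alone, rho with miR-335-5p was 0.826 for miR-330-3p and 0.725 for miR-99b-5p, both higher than over all training libraries, and 0.836 and 0.752 without mouse 3335 at month 6. Over all training libraries without the last libraries of mice 3334 and 3341, rho with miR-335-5p was 0.835 for miR-335-3p, 0.692 for miR-99b-5p and 0.688 for miR-330-3p.

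Other imprinted miRNAs and the neighbours on chromosome 6 were counted in the same tests. Of the 12 chromosome 6 arms, 7 were tested at month 1, where miR-182-5p (log2 fold change 0.98 ± 0.30, adjusted p = 0.0274) and miR-96-5p (0.75 ± 0.26, adjusted p = 0.0467) were higher and miR-29a-5p (-1.07 ± 0.32, adjusted p = 0.0233) lower in CM mice, 3 of 7 where 27.5% of all miRNAs were called. The median over the 7 was 0.27, beside -0.10 over all miRNAs tested. At months 2 and 3 miR-29a-5p was the 1 arm called of 7, lower in CM mice at both (-0.81 and -0.99), where 13.5% and 22% of all were called, and at months 4, 5 and 6 there were 0 of 7, with 0% of all called. In Ctrl mice from month 0 to month 6, miR-29a-3p was the 1 arm called of 7, higher by 0.60 ± 0.19 (adjusted p = 0.0372), where 20.5% of all were called. The median over the 7 was 0.48, beside 0.03 over all miRNAs tested. The call of miR-29a-3p was lost with the mouse as a block (adjusted p = 0.0563) and without mouse 3335 (adjusted p = 0.0643).

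Of 8 arms from imprinted loci outside Dlk1-Dio3, 3 were tested, miR-296-5p, miR-296-3p and miR-298-5p of the Gnas locus. miR-296-5p was higher in CM mice at month 1 (0.96 ± 0.33, adjusted p = 0.0431), and miR-298-5p (2.86 ± 0.81, adjusted p = 0.0189) and miR-296-3p (2.65 ± 0.74, adjusted p = 0.0179) at month 3, or 1 and 2 of the 3 where 27.5% and 22% of all were called. At month 2 there were 0 of the 3, where 13.5% of all were called. At months 4, 5 and 6 and at validation point 5 there were 0 of the 3, with 0% of all called. In Ctrl mice all 3 fell from month 0 to month 6, where 20.5% of all miRNAs were called. The log2 fold changes were -1.93 for miR-298-5p, -1.91 for miR-296-3p and -1.59 for miR-296-5p. With the mouse as a block they were -1.95, -1.96 and -1.34 (adjusted p = 0.00101, 0.00434 and 0.0310), where 14.1% of all were called. All 3 were also called without mouse 3335. The Dlk1-Dio3 cluster is a large imprinted miRNA cluster expressed from the maternal chromosome. Of its listed arms, 0 passed the filter on low counts at months 1, 2 and 3, 3 at month 4 and 4 at months 5 and 6. Of these, 0 were called, but 0% of all miRNAs were called at months 4, 5 and 6. The lack of a call is thus shared with every miRNA tested. In the last library of mouse 3334, the 2 miRNAs of this cluster with a mean of at least 5 CPM had a median of 3.99 (log2) above the Ctrl median. Over all 414 miRNAs of that filter the median was -0.23. In the last library of mouse 3341 it was 0.55 for the 2, beside -0.30 over the 414. That mean was taken with the library of mouse 3334 among the rest, so the 2 may have passed the filter through it. The values therefore only describe these libraries and say nothing about the other listed arms.

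The validation cohort gives miR-335 in other mice, but at 1 point only. The 12 libraries of point 5 held 1645456 to 5445215 reads, whereas the 90 libraries of other points held 1744 to 76906. There miR-335-5p was above 0 in 12 of 90 libraries (6 CM and 6 Ctrl) and miR-335-3p in 7 of 90 (4 CM and 3 Ctrl), with at most 2 and 1 reads, and 3 reads are worth 50.6 to 293 CPM. With so few reads no comparison was made outside point 5.

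At point 5 miR-335-5p was at 425, 212, 121.8, 436, 288 and 150 CPM in CM mice 2684, 2685, 2686, 2700, 2709 and 2718 and at 301, 538, 676, 657, 347 and 234 CPM in Ctrl mice 2683, 2689, 2692, 2702, 2705 and 2720. miR-335-3p was at 219, 138.7, 34.8, 227, 81.03 and 3.67 CPM in the same CM mice and at 152, 282, 137.1, 246, 170 and 100.8 CPM in the same Ctrl mice. The groups overlapped for both arms, and the lowest values were in CM mice. This table was scaled apart from the training table, so levels are not comparable between cohorts.

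On the log2(CPM + 1) scale the difference, CM minus Ctrl, was -0.80 ± 0.39 (SE) for miR-335-5p (limma-trend, adjusted p = 0.864) and -1.34 ± 0.69 for miR-335-3p (adjusted p = 0.870). limma-trend called 0% of 930 miRNAs, with 54 at an unadjusted p under 0.05, and edgeR on recovered reads called 0. The value of miR-335-3p rests in part on mouse 2718, with 1 read, and it was -0.57 without that mouse and -0.74 with edgeR on reads.

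**Figure D5:**
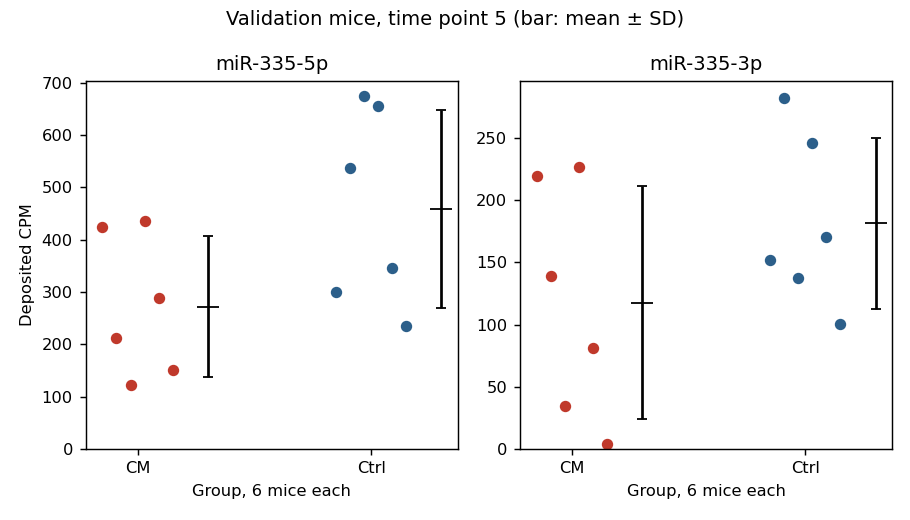
Deposited CPM (vertical) of miR-335-5p and miR-335-3p at validation point 5 in 6 CM mice (red) and 6 Ctrl mice (blue), 1 point per mouse, with the mean ± SD as a bar. CM mice span 121.8 to 436 CPM and Ctrl mice 234 to 676 CPM for miR-335-5p, and the lowest CM point for miR-335-3p is mouse 2718 at 3.67 CPM.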

How the data were processed

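Small RNA libraries of PBMC RNA were sequenced from 231 samples, all assigned to arm, mouse and time by their labels, though title numbers of mice 3334 and 3335 conflict with their group. Per the study's methods, the authors trimmed adapters with cutadapt, aligned reads to mm9 with Bowtie and scaled CPM by TMM in edgeR. The submitters' processing notes name GRCm38, so the build is not settled. The deposited training counts are whole mirTOP counts, at settings not given in the sources used here. The deposited CPM tables are a TMM-scaled signal, and 100% of training and of point 5 values were whole multiples of 1 read within 0.05 reads. No test of CPM levels was made across cohorts.

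Counts were tested with edgeR 4.0.16 (R 4.3.3; quasi-likelihood, TMM, filterByExpr) and validation CPM with limma-trend (limma 3.58.1; log2(CPM + 1), at least 1 CPM in as many libraries as the smaller group), both with Benjamini-Hochberg adjustment over all miRNAs tested. Scripts were tested on simulated data. Training mice were sampled repeatedly, so the same mouse number marks the same animal in every month, and fits with the mouse as a block were run as alternatives. Other alternatives were DESeq2 1.42.0, no filter, deposited CPM, sex, G number and each mouse left out, and, added after seeing the data, edgeR on reads recovered from the training CPM the last CM libraries without mice 3334 and 3341, and all fits without mice 3334 and 3335.

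The members and the lists of miRNAs were chosen with earlier results of these data known. The named miRNAs were both arms of miR-335, miRNAs with the same seed, the 5 highest in Spearman's rho, and called members of the lists. miR-183-5p, miR-126a-3p, miR-29b-1-5p and, in single libraries, miR-182-5p and miR-29a-3p were chosen after their values were seen.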

Additional observations from a re-analysis of the deposited data

Results flagged for a closer look

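Single libraries far from the rest of their group were found 6 times in 40 sets of 4 to 10 libraries, 1 set for each arm of miR-335 in each group and time, by the gap to the nearest library relative to the range, where about 1 in 20 groups is marked without any difference. The last CM libraries, whose levels chose these miRNAs, were not among these sets. Among Ctrl libraries of month 6, mouse 3335 was marked for both arms (161 and 95.4 CPM), and among those of month 2, mouse 3349 was marked for both as the lowest (3.67 and 2.94 CPM, from 10 and 8 counts). CM mouse 3338 was marked at month 3 for miR-335-5p (91.5 CPM) and Ctrl mouse 3342 at month 1 for miR-335-3p (51.2 CPM).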

How the results depend on the processing

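No comparison of CM with Ctrl mice was called for either arm of miR-335 in the month by month tests or at validation point 5 under any alternative run, with every mouse left out in turn included. Sizes and signs moved. With 1 mouse left out, month 1 ran from -0.46 to -0.24 for miR-335-5p and -0.49 to -0.10 for miR-335-3p, and month 4 from -0.72 to -0.08 and -0.70 to -0.21. For miR-335-3p at month 2 the log2 fold change (-0.07) became 0.13 with limma-trend on the deposited CPM, 0.014 with sex as a covariate and 0.052 in the fit over all libraries without G number, and it ran from -0.25 to 0.063 with 1 mouse left out. For miR-335-3p at month 3 (0.11) it was -0.017 with limma-trend and -0.10 to 0.25 with 1 mouse left out. For miR-335-5p at month 5 (0.01) it was -0.011 with limma-trend, -0.011 with edgeR on recovered reads, -0.0055 with sex, -0.090 with all libraries and G number, -0.070 without mice 3334 and 3335, and -0.085 to 0.11 with 1 mouse left out. At month 6 miR-335-5p ran from -0.80 to 0.023, the last without Ctrl mouse 3335.

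The rise of miR-335-3p in Ctrl mice from month 0 to month 6 was called with DESeq2 (adjusted p = 0.0203) and edgeR on recovered reads (adjusted p = 0.0475). It was not called without the filter (1.09, adjusted p = 0.0605), with limma-trend (0.64, adjusted p = 0.161), with the replicate block of mouse (0.79, adjusted p = 0.0771) without any 1 of the 7 mice (0.60 to 1.21) or without mice 3334 and 3335 (0.60, adjusted p = 0.0773), and the cause was not tested. The paired fits with the mouse as a block changed no other call of miR-335. Over mouse means of months 1 to 3, leaving out 1 mouse gave -0.0057 to 0.17 for miR-335-5p and 0.15 to 0.25 for the ratio of arms, which passed the threshold (0.25) without mouse 3368 alone and was 0.13 over months 1 to 6 without the last CM libraries.

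Counts of all called miRNAs moved more than 1.5 times in several comparisons. At month 2 they were 13.5% of the miRNAs tested, with 21.4% by DESeq2, 22.2% with recovered reads, 2.63% without the filter and 26.6% without mouse 3349. At month 5 they were 0, and 35 with all libraries or 11 with G number added, and 37 without mouse 3335 or 4 without mouse 3368, and 53 without mice 3334 and 3335. At month 4 they were 0, and 9 with recovered reads or 8 without mouse 3350, and at month 6 they were 0, and 1 without the filter. Without mice 3334 and 3335 they were 2 at month 4. In Ctrl mice at month 1 they were 3, with 18 by DESeq2, 0 with the block and 0 to 2 with 1 mouse left out, and at month 6 they were 97, with 51 without mouse 3339 and 61 without mouse 3350. In CM mice from month 1 to 3 they were 5, with 0 by limma-trend, 2 with recovered reads, 0 with the block and 0 to 5 with 1 mouse left out, and in the comparison of that change they were 0, with 18 without mouse 3334 and 1 without mouse 3370. With 8 to 30 counts behind the lowest values, small differences of either arm are not detectable in those libraries.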
